A study of Mus musculus with 24 samples.

Results

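Hepatic stellate cells were followed through 10 genes that mark them, Lrat, Reln, Rgs5, Des, Ngfr, Cygb, Vipr1, Colec11, Ecm1 and Hand2, out of 49568 genes listed in each of 2 RNA-seq tables of mouse liver cells. The genes were chosen by name, with earlier results of these data known, and found by symbol. All 10 were present in both tables, and all 10 passed the filter on low values in both. The first table (homeostasis) holds cells sorted from healthy livers of 3 C57BL/6 mice aged 12 weeks, mice A and E (male) and F (female). All of these mice were heterozygous for B6.129S4-Pdgfratm11(EGFP)Sor/J, a reporter that places a green nuclear histone in cells that transcribe Pdgfra, so that PDGFRα+ here means a green nucleus. From each mouse came EpCAM+ ductal cells (DCs) and 3 stromal fractions, all negative for CD11b, CD45 and CD31. Of the stromal fractions PDGFRα+SCA1- and PDGFRα+SCA1+ cells had green nuclei and PDGFRα-SCA1+ cells did not (n = 3 mice each). The second table (transwell) holds 6 groups of 2 replicates from wild-type C57BL/6 mice aged 8 to 12 weeks. On the ductal side these were DCs at day 0, organoids grown from DCs for 15 days in an expansion medium with added growth factors (EM organoids), and organoids grown for 15 days in a transwell above SCA1+ mesenchyme in a medium without those factors. On the mesenchymal side they were SCA1+Msc cells at day 0, cells cultured alone for 15 days and cells kept below the organoids as long, and these cells were sorted on SCA1 and the absence of CD45, CD11b and CD31 without PDGFRα. The SCA1+Msc cells came from 2 littermates and the DCs from 2 others. The SCA1+Msc cells were first expanded on the bottom of the well in the medium without those factors, which held WNT3A. The 15 days began after this expansion, so for these cells the time from day 0 was longer than for the ductal cells. Nothing in the labels says that the replicates of a cultured group were separate cultures. The paper counts 2 independent biological replicates in this experiment. The p-values there thus measure the spread between these samples.

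Stellate cells lie in the space of Disse between hepatocytes and the sinusoid, where they store the body's vitamin A as retinyl esters in lipid droplets. Lrat makes those esters. In injury the cells lose their droplets, divide, contract and lay down collagen, a change called activation that also begins on culture plastic. Portal fibroblasts, which surround the bile ducts, and smooth muscle cells and pericytes of the vessel wall are the other mesenchymal cells of the liver, and several stellate cell markers are shared with them. A bulk sample holds a mixture, so that fewer cells of a type and less RNA per cell cannot be told apart in any result given here.

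The libraries held 19.6 to 25.7 M reads (median 22.4 M) in the homeostasis and 19.3 to 28.1 M (median 22.9 M) in the transwell experiment, as recovered from values that correspond to whole reads. Among the sort genes, Pdgfra stood at 74.7 ± 24.2 (SD, n = 3, deposited value) without and 82.3 ± 18.0 with SCA1 in the PDGFRα+ cells, at 0.0563 ± 0.0231 in DCs and at 0.0328 ± 0.00662 in the PDGFRα-SCA1+ fraction. Ly6a, which encodes SCA1, stood at 20.1 ± 13.1 in PDGFRα+SCA1- cells, 1108 ± 181 in PDGFRα+SCA1+ cells, 4074 ± 986 in PDGFRα-SCA1+ cells, while DCs held 103 ± 45.5. The homeostasis values were deposited under the name TPM but range from 0.722 to 1.39 times the TPM, since the totals they were divided by change from gene to gene, and the order of the members by level was therefore taken on a TPM scale with this undone. Sums over marker lists in the homeostasis samples add deposited values and carry this spread. Smart-seq2 reads do not mark the strand, so Hand2 could not be told apart from Hand2os1 of the opposite strand over 19.6% of its exon bases, nor Cygb from Prcd over 8.62%, nor Des from Gm15179 over 5.86%.

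The promoters of 5 of these genes are shown with the motifs they hold. Given are the 250 bases before the start of transcription in RefSeq (build GRCm38.p6), 5′ to 3′ on the strand of the gene, with capitals for an E-box (CANNTG, the motif of bHLH factors such as HAND2), a GATA motif (GATAA), a TEAD motif (GGAATG) or a CArG box, searched on both strands. Lrat was chosen as the enzyme of retinoid storage, Rgs5 as the gene that was high in DCs, Vipr1 as the gene that nearly vanished in culture, Ecm1 as the most abundant member and Hand2 as the gene that rose in culture.
Lrat, chr3:82903975-82904224, minus strand: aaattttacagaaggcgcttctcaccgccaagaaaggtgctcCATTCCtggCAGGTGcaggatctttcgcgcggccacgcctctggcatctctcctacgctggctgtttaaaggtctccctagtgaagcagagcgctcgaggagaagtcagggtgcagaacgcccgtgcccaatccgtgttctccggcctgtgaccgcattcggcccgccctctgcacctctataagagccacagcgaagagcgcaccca
Rgs5, chr1:169655251-169655500, plus strand: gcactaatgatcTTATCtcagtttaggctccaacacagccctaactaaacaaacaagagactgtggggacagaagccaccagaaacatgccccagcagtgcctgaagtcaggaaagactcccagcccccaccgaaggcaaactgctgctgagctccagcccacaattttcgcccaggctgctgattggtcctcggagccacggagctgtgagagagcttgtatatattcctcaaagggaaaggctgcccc
Vipr1, chr9:121642466-121642715, plus strand: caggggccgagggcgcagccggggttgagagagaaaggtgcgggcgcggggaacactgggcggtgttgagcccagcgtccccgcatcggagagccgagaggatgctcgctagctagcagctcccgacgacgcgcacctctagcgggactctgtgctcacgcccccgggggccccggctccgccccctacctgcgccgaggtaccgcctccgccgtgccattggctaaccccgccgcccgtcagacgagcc
Ecm1, chr3:95739570-95739819, minus strand: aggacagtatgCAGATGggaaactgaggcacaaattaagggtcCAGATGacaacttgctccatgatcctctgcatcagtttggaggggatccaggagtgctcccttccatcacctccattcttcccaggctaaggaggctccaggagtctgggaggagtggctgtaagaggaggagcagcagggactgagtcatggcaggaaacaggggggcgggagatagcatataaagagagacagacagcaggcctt
Hand2, chr8:57320733-57320982, plus strand: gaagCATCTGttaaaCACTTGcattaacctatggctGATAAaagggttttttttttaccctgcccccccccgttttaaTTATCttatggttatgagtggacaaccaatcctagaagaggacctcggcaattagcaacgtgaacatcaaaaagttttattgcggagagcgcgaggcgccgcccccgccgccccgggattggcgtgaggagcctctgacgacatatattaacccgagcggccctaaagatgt

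Lrat held a TEAD motif (as its reverse complement) from base -208 to -203 and an E-box from -199 to -194, counted back from the start. Ecm1 held 2 E-boxes, Hand2 held 2 E-boxes and 2 GATA motifs, Rgs5 held 1 GATA motif, and Vipr1 held none of the 4 motifs, with 72.8% G and C against 49.2% in Hand2. A RefSeq promoter was found for 9 members, all except Cygb. Of these 9, 7 held an E-box, 4 a GATA motif, 1 a TEAD motif and 0 a CArG box, while 66.2%, 22.6%, 12.6% and 1.47% of 32851 promoters of the same length held them. No 2 of these motif types overlap in the printed windows, and a match describes letters and not a bound site.

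In the healthy liver the stellate cell markers were genes of the PDGFRα+ cells. In PDGFRα+SCA1- cells 10 of 10 were higher than in DCs at an adjusted p under 0.05 (limma), where 9.98% of the 17028 genes tested were higher, and in PDGFRα+SCA1+ cells 9 of 10 were, where 9.85% of all genes were. The median log2 fold change of the 10 was 5.81 and 6.67, against -0.47 and -0.28 over all genes, which moved to -0.13 and -0.10 after quantile normalization. Rgs5 was the member that did not pass in PDGFRα+SCA1+ cells.

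Lrat (ENSMUSG00000028003.6, chromosome 3 of GRCm38 from 82892579 to 82903973) had deposited values, for mice A, E and F in this order here and in the following genes, of 181, 310.2 and 134 in PDGFRα+SCA1- cells, while PDGFRα+SCA1+ cells held 60.9, 108 and 236. In DCs it was 0.0286, 0.569 and 0, which is 1, 22 and 0 reads. The 2 PDGFRα+ fractions overlapped with each other and lay far above every DC library, with log2 fold changes of 7.39 (standard error 0.86, limma adjusted p 4.46e-05) and 6.64 (standard error 0.86, adjusted p 0.000109). In PDGFRα-SCA1+ cells Lrat was at 0.0858, 17.9 and 2.36, so that mouse E held most of the signal there. Its log2 fold change over DCs of 1.81 there did not pass (adjusted p 0.164), but did without the PDGFRα-SCA1+ library of mouse A (0.0232).

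Des (ENSMUSG00000026208.9, chromosome 1 from 75360329 to 75368579) encodes desmin, an intermediate filament of contractile cells, and Cygb (ENSMUSG00000020810.5, chromosome 11 from 116645595 to 116654313) encodes cytoglobin, a globin of stellate cells. Des stood at 121, 191 and 177 without SCA1 and 245, 209.9 and 173 with SCA1 in the PDGFRα+ cells, and DCs held 0.0426, 0.587 and 0.463. Cygb stood at 991, 1002 and 1077 without and 1369.6, 1245 and 2157 with SCA1, and DCs held 10.6, 15.2 and 8.92. These were the members that varied least between mice within the PDGFRα+SCA1- cells. The log2 fold changes in PDGFRα+SCA1+ cells over DCs were 7.28 for Des (standard error 0.34, limma adjusted p 3.89e-08) and 6.97 for Cygb (standard error 0.29, adjusted p 2.83e-08).

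Ngfr, Vipr1 and Reln link stellate cells to neural signals. Ngfr (ENSMUSG00000000120.6, chromosome 11 from 95568818 to 95587735), the p75 neurotrophin receptor, was at 42.1, 89.0 and 60.2 in PDGFRα+SCA1- cells, 146, 181 and 247 in PDGFRα+SCA1+ cells, and 0.108, 2.32 and 0.614 in DCs. Vipr1 (ENSMUSG00000032528.5, chromosome 9 from 121642716 to 121672954), a receptor for vasoactive intestinal peptide, was at 66.8, 91.8 and 27.8 in PDGFRα+SCA1- cells, 39.3, 39.8 and 29.8 in PDGFRα+SCA1+ cells, while DCs held 0.882, 0.742 and 0. Ngfr was higher in every PDGFRα+SCA1+ library than in any PDGFRα+SCA1- library, whereas the Vipr1 values of the 2 fractions overlapped. Reln (ENSMUSG00000042453.14, chromosome 5 from 21884454 to 22344702), the secreted guidance protein reelin, was at 123, 150.1 and 21.3 in PDGFRα+SCA1- cells, 26.0, 13.8 and 16.8 in PDGFRα+SCA1+ cells, while DCs held 0.344, 3.10 and 1.76. Against DCs the log2 fold change of Reln was 4.92 without SCA1 (standard error 0.74, limma adjusted p 0.000341) and 2.96 with SCA1 (standard error 0.74, adjusted p 0.0114). The second call was lost without mouse A of the DCs (adjusted p 0.0556) or of the PDGFRα+SCA1+ cells (0.0512).

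Ecm1 and Colec11 encode secreted proteins, extracellular matrix protein 1 and collectin 11, a lectin of the complement system. Ecm1 (ENSMUSG00000028108.15, chromosome 3 from 95734147 to 95739569) stood at 6766, 7577 and 2599 in PDGFRα+SCA1- cells, 1690.2, 1950.5 and 1498 in PDGFRα+SCA1+ cells, while DCs held 7.46, 8.999 and 4.48. No fraction overlapped with another. Its log2 fold change over DCs reached 9.37 without SCA1 (standard error 0.39, limma adjusted p 3.15e-08). Colec11 (ENSMUSG00000036655.8, chromosome 12 from 28594173 to 28623377) stood at 788, 659 and 235 in PDGFRα+SCA1- and 536, 411 and 518 in PDGFRα+SCA1+ cells and at 0 in all DC libraries. Set against a floor of 3 reads per library, its mean was at least 1425-fold higher in PDGFRα+SCA1- and at least 1240-fold higher in PDGFRα+SCA1+ cells than in DCs.

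Rgs5 and Hand2 are a signalling regulator and a transcription factor. Hand2 (ENSMUSG00000038193.4, chromosome 8 from 57320983 to 57324633), a bHLH factor, was the lowest member in the PDGFRα+ cells at 13.8, 8.96 and 5.44 without SCA1 and 9.27, 2.17 and 4.50 with it, and 0 in every DC library. Its mean was at least 39.5-fold and at least 22.4-fold higher there than in DCs, against the same floor. With SCA1 the log2 fold change of Hand2 was 2.496 (standard error 0.62, limma adjusted p 0.0113), and it did not pass without mouse A of these cells (0.0508). Rgs5 (ENSMUSG00000026678.10, chromosome 1 from 169655501 to 169695813), a regulator of G protein signalling known from pericytes, stood apart from the other members because DCs held it as well, at 101, 62.9 and 129. It was at 439.9, 496 and 188 in PDGFRα+SCA1-, 78.5, 81.5 and 71.3 in PDGFRα+SCA1+ and 47.2, 94.7 and 67.7 in PDGFRα-SCA1+ cells. Only the PDGFRα+SCA1- libraries lay above all others, with a log2 fold change over DCs of 1.87 (standard error 0.40, limma adjusted p 0.00384). For PDGFRα+SCA1+ cells over DCs it was -0.28 (standard error 0.40, adjusted p 0.670), and its sign turned to 0.0882 after quantile normalization. In the same DC libraries the 10 smooth muscle and pericyte markers summed to 25.6 to 34.3, with Myh11, Lmod1, Cspg4, Kcnj8 and Notch3 under 0.1 in each, and the 8 endothelial markers summed to 11.1 to 19.97, and the part of such cells in the Rgs5 level was not tested.

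**Figure D1:**
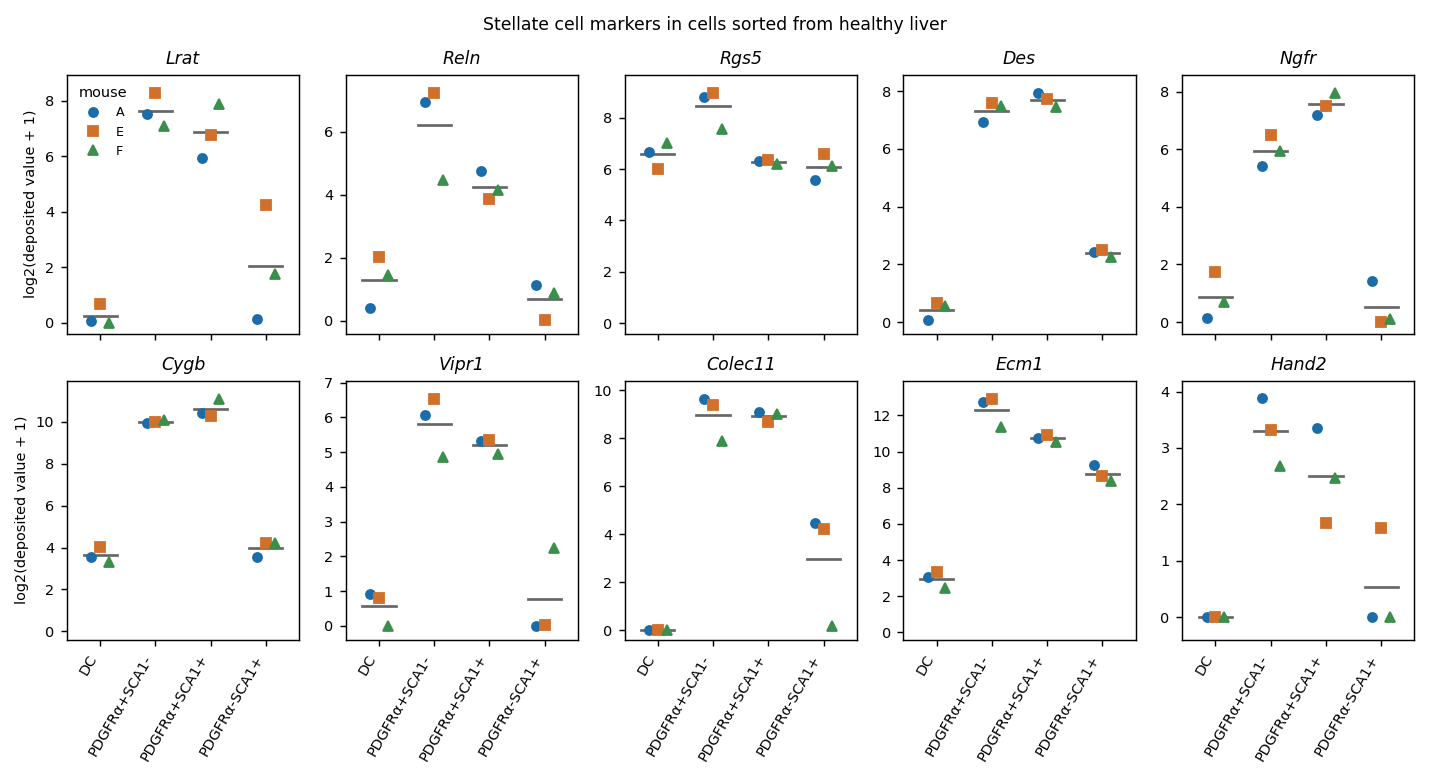
Deposited values of the 10 stellate cell markers as log2(value + 1) in DCs and 3 stromal fractions, with 1 point per mouse (A, E, F) and a bar at the mean of the 3 points. The PDGFRα+ fractions lie above DCs for each gene except Rgs5, which reached 62.9 to 129 in DCs, and Ecm1 stays at 335 or more in PDGFRα-SCA1+ cells.

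On the TPM scale Ecm1 made up 71.7% of the summed level of the 10 members in PDGFRα+SCA1- cells, followed by Cygb with 10.8% and Colec11 with 5.91%. In PDGFRα+SCA1+ cells Ecm1 and Cygb were closer, with 42.5% and 32.0%, and Ngfr had moved from the ninth to the fifth place. The sum of the 10 members was 5078 to 12260 TPM in PDGFRα+SCA1- and 4403 to 4995 TPM in PDGFRα+SCA1+ cells, and 91.1 to 145 TPM in DCs, of which Rgs5 was 83.1%. The ranges of the PDGFRα+ fractions did not overlap on this scale but did as deposited, where the sums were 4525 to 10576 and 4200.4 to 4951.

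Between the PDGFRα+ fractions 7 of the 10 markers had a log2 fold change below 0 and 3 above, with a median of -0.68 against 0.15 over all genes. Of the 10, 1 was past the threshold, Rgs5, which was lower in PDGFRα+SCA1+ cells with a log2 fold change of -2.15 (standard error 0.40, limma adjusted p 0.0354), while 0.153% of all genes were lower. The call was lost with the mouse as a block (adjusted p 0.0825), after quantile normalization (0.0552), with no filter (0.0714), without a trend (0.0678), when only the 2 fractions were fitted (0.136) and without 4 of the 6 libraries, mouse A of the PDGFRα+SCA1- cells (0.0774) and mice A (0.150), E (0.129) and F (0.163) of the PDGFRα+SCA1+ cells. The ratio of PDGFRα+SCA1+ to PDGFRα+SCA1- cells within a mouse was 0.178, 0.164 and 0.380 for Rgs5. Ecm1 went the same way with ratios of 0.250, 0.257 and 0.576 and a log2 fold change of -1.58 (standard error 0.39, adjusted p 0.118), which passed only without the PDGFRα+SCA1- library of mouse F (0.0123). Ngfr had the opposite direction, with ratios of 3.46, 2.03 and 4.11 and a log2 fold change of 1.60 (standard error 0.56, adjusted p 0.275).

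Reln was lower with SCA1 in every mouse, with ratios of 0.211, 0.0918 and 0.788, but its log2 fold change of -1.96 (standard error 0.74) had an adjusted p of 0.322 (limma). Lrat was lower in mice A and E and higher in mouse F, with ratios of 0.337, 0.348 and 1.75 (adjusted p 0.804). Colec11 split the mice in the same way, at 0.680, 0.624 and 2.20, and Vipr1 did so only as deposited, with 1.07 in mouse F that became 0.927 with the reuse of totals undone. The PDGFRα+SCA1- library of mouse F was the lowest of the 3 in 7 of the 10 members, Lrat, Reln, Rgs5, Vipr1, Colec11, Ecm1 and Hand2. Mouse F was also the only female, and sex and animal cannot be told apart. At an unadjusted p under 0.05 the comparison held 4 members, Reln, Rgs5, Ngfr and Ecm1, and 1985 of 17028 genes.

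**Figure D2:**
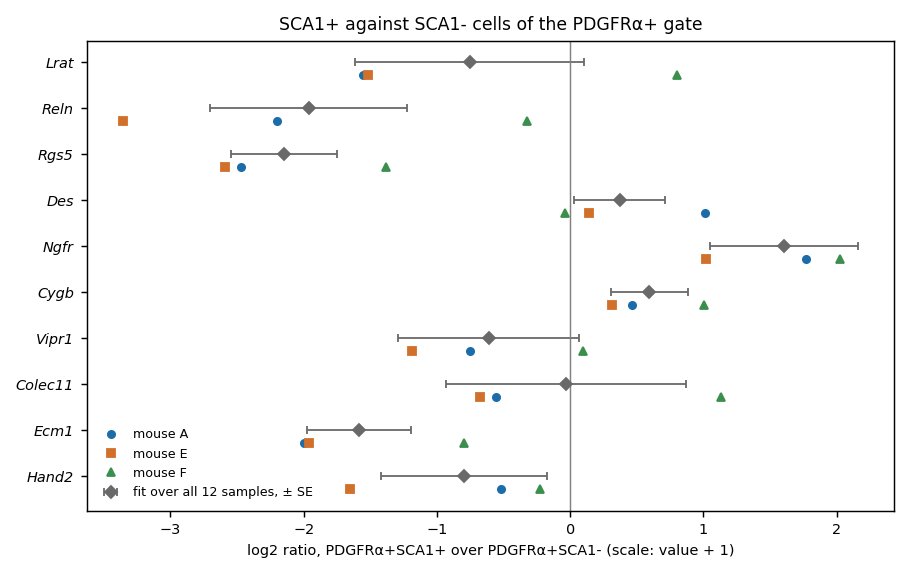
Log2 ratio of PDGFRα+SCA1+ to PDGFRα+SCA1- cells for each marker on the scale of log2(value + 1), with coloured points for mice A, E and F and a diamond with SE for the fit. Rgs5, Reln, Ecm1 and Hand2 lie left of 0 in each mouse, Ngfr and Cygb lie right of 0 in each mouse, and mouse F lies on the other side from A and E for Lrat, Vipr1, Colec11 and Des.

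Genes of some other lists also differed between these fractions. Over all genes 26 of 17028 (0.153%) were lower in PDGFRα+SCA1+ cells, and this share stands beside the counts below. Of 13 further quiescent stellate genes tested 0 passed in either direction, and of 10 portal fibroblast markers 0 passed (limma). Smooth muscle and pericyte markers were lower in PDGFRα+SCA1+ cells for 3 of 10, which were Cnn1 (log2 fold change -6.18), Actg2 (-5.33) and Myh11 (-3.50), all genes of the contractile apparatus, with a median of -0.61 over the list and 0.15 over all genes. Their summed level was 1729.9 to 2097 without SCA1 and 1074.5 to 1235 with it, and the part of these cells in the Rgs5 difference was not tested. Of 14 activation genes 2 were lower, Postn (-3.36), a matrix protein, and Acta2 (-3.25), smooth muscle actin. Of 18 partners of the members tested, 1 was lower, Colec10 (-3.13), which encodes the lectin that pairs with collectin 11.

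Both PDGFRα+ fractions held stellate, portal fibroblast, and smooth muscle and pericyte genes together. Of 10 smooth muscle and pericyte markers 8 were higher than in DCs without SCA1 and 7 with it, with a median log2 fold change of 6.44 and 4.04. Of all genes 9.98% and 9.85% were higher in these 2 comparisons. In PDGFRα+SCA1- cells 10 of 13 further stellate genes were higher than in DCs, among them Tcf21 (log2 fold change 7.79), a mesenchymal transcription factor, and Fcna (7.73), which encodes ficolin A. Of 10 portal fibroblast markers 10 were higher, led by Dpt (8.16) and Mfap4 (7.97), both matrix proteins. In PDGFRα+SCA1+ cells 10 of 13 stellate genes were higher, led by Tcf21 (8.97) and Adamtsl2 (7.42), 1 was lower, Plin2 (-2.02), a lipid droplet coat protein, and 9 of 10 portal fibroblast markers were higher, led by Dpt (8.79) and Mfap4 (7.78). Activation genes were higher for 13 and 12 of 14, with Col3a1 at 8.85 and 8.60 and Col1a1 at 8.79 and 8.59, both collagen chains. Summed portal fibroblast markers were at 5004 to 8868 without SCA1 and 6382 to 8961 with it. Among the retinoid handling genes Aldh1a3, which makes retinoic acid, was higher than in DCs at 4.07 without SCA1 and 2.83 with it. Higher were also Rxra (1.87), a nuclear receptor, without SCA1 and Rdh10 (2.13), a retinol dehydrogenase, with it, and Rbp4 (-1.43 and -1.74) and Dhrs3 (-1.49 and -1.43) were lower. Of 18 partners of the members 8 were higher and 2 lower in either fraction. Colec10 (8.48) and Masp1 (6.70), a protease of the lectin pathway, led in PDGFRα+SCA1- cells, and Gata4 (6.64), a transcription factor, was among those higher in PDGFRα+SCA1+ cells. Dab1, which carries the reelin signal inside cells, was lower at -5.56 and -5.58, as were Sort1 (-2.78) without SCA1 and Cyb5r3 (-0.67) with it.

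In PDGFRα-SCA1+ cells most of the markers were low. Against PDGFRα+SCA1- cells 10 of 10 were lower, where 7.24% of all genes were, and against PDGFRα+SCA1+ cells 9 of 10 were lower, where 7.86% were, with Rgs5 as the exception (log2 fold change -0.19, standard error 0.40, limma adjusted p 0.798). Against PDGFRα+SCA1- cells the Hand2 call was lost when only these fractions were fitted (adjusted p 0.0769). The difference from PDGFRα+SCA1+ cells reached -7.04 for Ngfr (standard error 0.56, adjusted p 3.94e-06) and -6.60 for Cygb (standard error 0.29, adjusted p 8.35e-08). Hand2 had the weakest call at -1.97 (standard error 0.62, adjusted p 0.0452), lost in 9 of its alternatives (adjusted p 0.0564 to 0.163), among them the block on the mouse (0.0653) and leaving out mouse A or F of either fraction (0.0978 to 0.163), and 31 reads of mouse E were the only ones found for it. Ecm1 fell least of those called, to 618, 407 and 335, with a log2 fold change of -1.96 (standard error 0.39, adjusted p 0.00367).

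A comparison of PDGFRα-SCA1+ cells with DCs, which was added after seeing the data, called 3 of 10 members higher, Ecm1 (log2 fold change 5.83, standard error 0.39, limma adjusted p 8.26e-07), Des (1.97, standard error 0.34, adjusted p 0.00106) and Colec11 (2.96, standard error 0.90, adjusted p 0.0319), where 11.5% of all genes were. Des was uniform at 4.43, 4.59 and 3.79. Colec11 was at 21.3 and 17.7 in mice A and E and at 0.131, about 1 read, in mouse F, and its call was lost without any 1 of 5 libraries (mice A, E and F of the DCs, and mice A and E of the PDGFRα-SCA1+ cells, adjusted p 0.0752 to 0.129), with no filter (0.0722) and when only these groups were fitted (0.137). All 8 endothelial markers were higher in PDGFRα-SCA1+ cells than in each other fraction, with a summed level of 4348 to 5499 against 11.9 to 58.7 in PDGFRα+SCA1+ cells. Hepatocyte markers summed to 2206.5 to 6950.1 there and portal fibroblast markers to 344 to 523, and the part of these cells in the level of Ecm1 was not tested.

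The genes outside the list most like Lrat over the 12 sorted samples were Vstm4 (Pearson r 0.984), Mfap2 (0.983), Pde1a (0.982), Cpz (0.982) and Axl (0.981), among 10683 genes compared. The genes most like Reln were Angptl6 (0.972), Fibin (0.965), Lhx2 (0.960), Adamts14 (0.959) and Fam171b (0.956). The means without and with SCA1 in the PDGFRα+ cells were 82.0 and 80.5 for Vstm4, 101 and 76.9 for Pde1a and 542 and 343 for Axl, and for Reln's nearest gene Angptl6 they were 649 and 97.8. Among the members themselves, the r of Des with Cygb was 0.976, that of Cygb with Ngfr 0.973 and that of Ngfr with Rgs5 0.324. These values describe 12 libraries from 3 mice in 4 fractions and carry no test.

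At day 0 of the transwell experiment, SCA1+Msc cells differed from DCs in all 10 members. Higher were 9 of 10, where 21.4% of the 18136 genes tested were higher, and lower was 1, Rgs5, where 24.7% were. The log2 fold changes of the 9 ran from 1.96 for Hand2 (standard error 0.27, limma adjusted p 0.000270) to 6.96 for Cygb (standard error 0.17, limma adjusted p 1.36e-08). The DC libraries held Lrat at 0.152 and 0.567 TPM, Des at 0.681 and 0.341, Vipr1 at 3.31 and 2.56 and Reln at 0.700 and 0.512, each below both SCA1+Msc libraries, whose values are given with the culture. Ecm1 was at 2851 and 2248 TPM in SCA1+Msc cells and 34.8 and 28.8 in DCs (log2 fold change 6.27, standard error 0.14, limma adjusted p 1.36e-08). Ngfr was at 84.9 and 105 TPM in SCA1+Msc cells and at 0 in both DC libraries, at least 683-fold higher than the floor. Rgs5 was at 149 and 105 TPM in SCA1+Msc cells while DCs held 261 and 256, a log2 fold change of -1.04 (standard error 0.26, adjusted p 0.00858), which did not pass when only these 2 groups were fitted (0.0502) or without replicate 2 of the SCA1+Msc cells (0.0554). The DC libraries held smooth muscle and pericyte markers at a sum of 28.9 to 46.2 TPM, with Lmod1 under 0.1, and endothelial markers at 64.1 to 66.2 TPM, and their part in the Rgs5 level was not tested.

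Hepatocyte markers summed to 18754 to 23731 TPM in the SCA1+Msc cells at day 0, more than in DCs (4580 to 5941 TPM). They fell to 72.1 to 109 TPM in the cells cultured alone, with Apoa1 and Cps1 under 0.1. Endothelial markers went from 434 to 460.4 TPM down to 87.6 to 148, with Stab2 and Lyve1 under 0.1, and ductal markers from 1192 to 2539 TPM down to 215 to 234. The part of these other cells in the changes given next was not tested. Pdgfra itself was at 102 ± 29.3 TPM (SD, n = 2) at day 0, 234 ± 56.7 alone and 288 ± 19.5 in co-culture.

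In culture the members parted. In SCA1+Msc cells alone 7 of 10 were lower than at day 0, where 17.5% of all genes were lower, 2 were higher, where 27.4% were higher, and Des did not pass. In co-cultured SCA1+Msc cells 7 were lower, where 17.3% were, and 1 was higher, where 26.0% were. The median log2 fold change of the members was -1.12 and -1.42, against 0.18 and 0.17 over all genes.

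Among the members that fell, Vipr1 had the largest log2 fold change in both cultures. It was at 52.8 and 47.2 TPM at day 0, at 0 and 0.773 alone and at 0 and 0.287 in co-culture, so that replicate 1 of both cultured groups held no read. Its log2 fold change was -5.26 alone (standard error 0.38, limma adjusted p 6.71e-06) and -5.49 in co-culture (standard error 0.38, adjusted p 5.77e-06). Rgs5 fell from 149 and 105 TPM to 19.6 and 24.4 alone and 18.3 and 12.7 in co-culture, with log2 fold changes of -2.47 (standard error 0.26, adjusted p 6.19e-05) and -2.96 (standard error 0.26, adjusted p 2.09e-05). Colec11 fell from 657 and 534 TPM to 125 and 158 alone and 100.5 and 95.2 in co-culture, with log2 fold changes of -2.07 (standard error 0.19, adjusted p 2.90e-05) and -2.59 (standard error 0.19, adjusted p 8.11e-06). In all 3 genes the day 0 libraries lay above every cultured library.

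Lrat, Reln, Ngfr and Ecm1 fell less. Lrat was at 51.7 and 39.9 TPM at day 0, 24.5 and 21.9 alone and 15.0 and 17.9 in co-culture, with log2 fold changes of -0.94 (standard error 0.28, limma adjusted p 0.0210) and -1.42 (standard error 0.28, adjusted p 0.00270). Ngfr was at 84.9 and 105 TPM at day 0, 37.3 and 50.3 alone and 33.5 and 36.7 in co-culture. Reln went from 15.2 and 12.9 TPM to 5.39 and 6.32 alone and 4.64 and 4.60 in co-culture. The groups at day 0 did not overlap with the cultured ones in these genes. Ecm1 stayed the most abundant member at 1031 and 1019 TPM alone, where its log2 fold change was -1.30 (standard error 0.14, adjusted p 6.27e-05). Of the calls in SCA1+Msc cells alone, those of Lrat (adjusted p 0.191), Reln (0.0712), Ngfr (0.0601) and Cygb (0.301) were lost with a pseudocount of 0.1, and without replicate 1 of that group (0.0587, 0.0520, 0.0510 and 0.0836). Lrat was also lost without replicate 2 of that group (0.0964) or replicate 1 of day 0 (0.0936), and Cygb without replicate 2 of either group (0.0963 and 0.0925). When only the 2 groups were fitted Lrat (0.0539), Reln (0.0618) and Ngfr (0.0584) did not pass, and with a pseudocount of 0.1 Lrat did not pass in co-culture (0.0600).

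Hand2 rose, and Cygb and Des were not called lower. Hand2 was at 3.18 and 2.63 TPM at day 0, which is 46 and 37 reads, and rose to 26.4 and 21.5 alone and 18.3 and 19.97 in co-culture, with log2 fold changes of 2.67 (standard error 0.27, limma adjusted p 4.94e-05) and 2.37 (standard error 0.27, adjusted p 0.000106). The ratio of the means was 8.25 and 6.59. Cygb was at 703 and 628 TPM at day 0, 968 and 987 alone and 713 and 927 in co-culture, and passed only alone (log2 fold change 0.56, standard error 0.17, adjusted p 0.0222). Des was at 202 and 157 TPM at day 0, 167 and 202 alone and 194 and 234 in co-culture, and the groups overlapped, with log2 fold changes of 0.04 (standard error 0.30, adjusted p 0.959) and 0.26 (standard error 0.30, adjusted p 0.529). The first of these turned to -0.14 after quantile normalization.

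**Figure D3:**
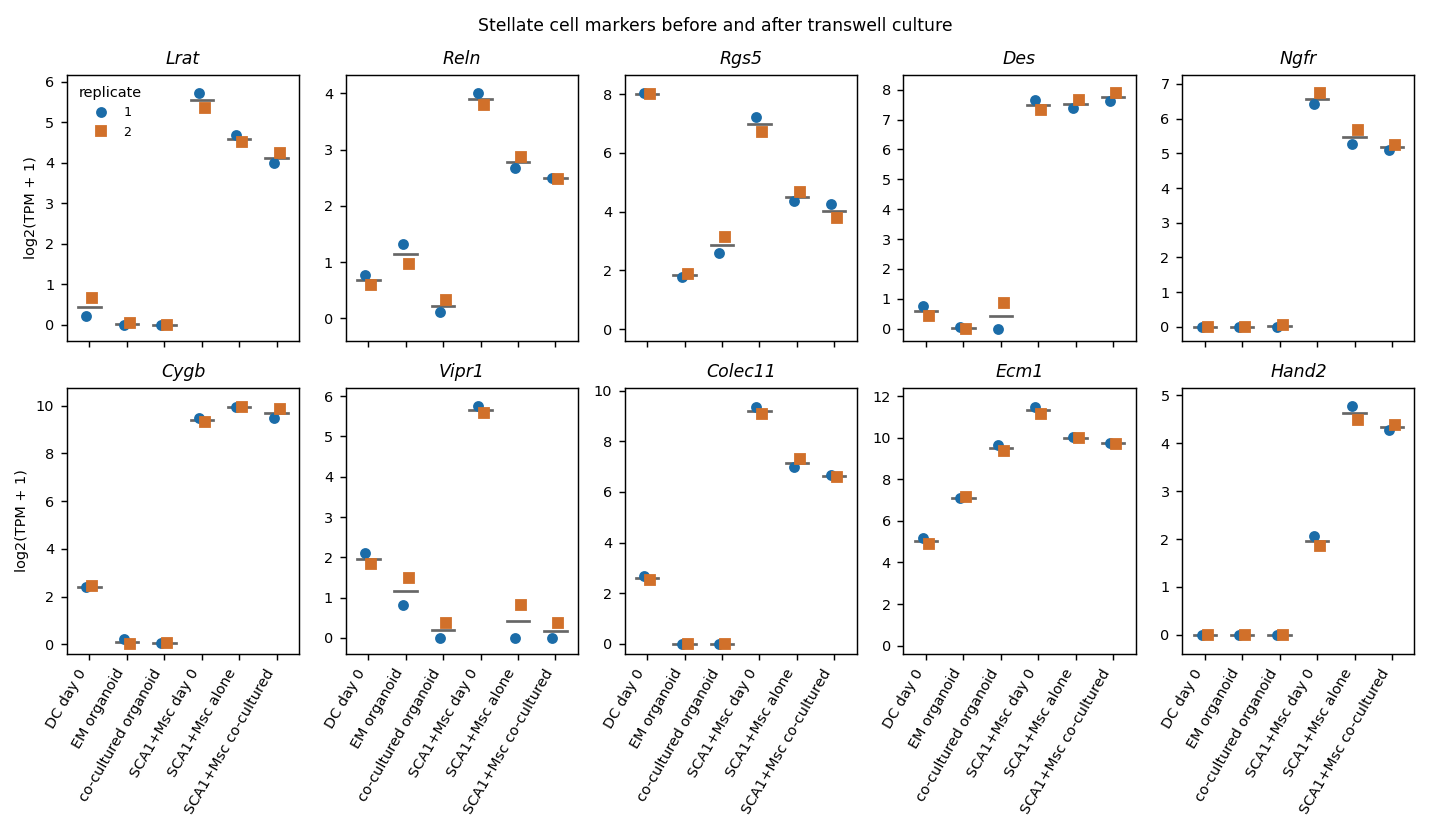
Levels of the 10 stellate cell markers as log2(TPM + 1) in the 6 transwell groups, with 1 point per replicate and a bar at the mean of the 2. In the mesenchymal groups Vipr1 drops to 0.773 TPM or less, Hand2 rises from 2.63 and 3.18 TPM to 18.3 or more, and Des overlaps between day 0 and culture, while on the ductal side Rgs5 drops and Ecm1 climbs.

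Co-culture moved no member past the threshold. Co-cultured and lone SCA1+Msc cells differed in 0 of 10 (limma), where 0.127% of all genes differed, 23 of 18136. The log2 fold changes ran from -0.52 for Colec11 (standard error 0.19, adjusted p 0.599) to 0.21 for Des (standard error 0.30, adjusted p 0.995), and 9 of the 10 were below 0. At an unadjusted p under 0.05 the comparison held 1 member, Colec11, and 1263 genes.

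Other stellate genes also moved in both directions in lone SCA1+Msc cells against day 0. Over all genes 27.4% were higher and 17.5% lower in this comparison, and these shares stand beside the counts of each list below. Of 14 further quiescent genes 4 were higher and 6 lower. The falls were led by Fcna (log2 fold change -5.26) and Angptl6 (-4.97), and Gdf2 (2.30), a growth factor of the BMP family, Nes (1.71), the filament protein nestin, and Pth1r (0.90) were among those that rose. Of 14 activation genes 5 were higher and 3 lower. Higher were Timp1 (2.24), an inhibitor of matrix proteases, Lox (2.17), which crosslinks collagen, Col5a2 (2.11), Col3a1 (1.85) and Tagln (1.25). Postn (-1.21) and Mmp2 (-0.63) were among those that fell. Of 17 retinoid handling genes 8 were higher, led by Crabp1 (5.62), a binding protein for retinoic acid, and Aldh1a2 (3.63), which makes it, and 2 were lower, Rbp4 (-6.31), the carrier of retinol in blood, and Rdh10 (-1.43). Crabp1 was listed at 0 in both libraries at day 0 and stood at 48.0 ± 1.75 TPM (SD, n = 2) alone and 23.0 ± 2.43 in co-culture.

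Ligands and coreceptors of the members were measured beside them. Of 20 partners tested 7 were higher and 6 lower in lone SCA1+Msc cells than at day 0, where 27.4% and 17.5% of all genes were. Bdnf, a neurotrophin, rose from 7.15 ± 5.97 to 31.3 ± 6.35 TPM (log2 fold change 2.20). Masp2, a protease that collectins activate, had the largest fall (-4.53), and Ntf5, also a neurotrophin, rose by 2.17. Cyb5r3, a reductase that can reduce cytoglobin, rose from 219 ± 20.8 to 719 ± 92.0 TPM (1.71). Portal fibroblast markers fell for 6 of 10, among them Clec3b (-5.10) and Gli1 (-3.48), and Fbln2 rose (3.44). Of 9 smooth muscle and pericyte markers 3 were higher, Mustn1 (2.01), Actg2 (1.92) and Mcam (1.45), and 2 were lower, Abcc9 (-1.33) and Myh11 (-1.27).

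On the ductal side Rgs5, Ecm1, Cygb and Colec11 passed the threshold between EM organoids and DCs at day 0. Rgs5 fell from 261 and 256 TPM in DCs at day 0 to 2.44 and 2.65 in EM organoids (log2 fold change -6.19, standard error 0.26, limma adjusted p 3.29e-07), and Ecm1 rose from 34.8 and 28.8 to 136 and 140.2 (log2 fold change 2.09, standard error 0.14, adjusted p 3.26e-06). It was the 1 member higher, where 27.1% of all genes were, and 3 were lower, where 17.2% were. Besides Rgs5 these were Cygb, from 4.24 and 4.46 TPM to 0.180 and 0 (-2.30, standard error 0.17, adjusted p 5.95e-06), and Colec11, from 5.46 and 4.74 to 0 in both (-2.61, standard error 0.19, adjusted p 6.42e-06), at least 15.0-fold lower against the floor. Lrat and Des were low in DCs and under the floor in EM organoids, at least 4.10-fold and 4.08-fold lower. They did not pass (adjusted p 0.278 and 0.161), but Lrat did with a pseudocount of 0.1 (0.0237). Endothelial markers went in the same samples from 64.1 to 66.2 TPM to 0.0225 or less, all 8 of them under 0.1. Smooth muscle and pericyte markers summed to 28.9 to 46.2 TPM in DCs at day 0, with Lmod1 under 0.1. In EM organoids they summed to 46.2 to 55.7 TPM, but 6 of these 10 were under 0.1 there. These were Myh11, Actg2, Lmod1, Cspg4, Kcnj8 and Abcc9. The part of other cells in the day 0 levels was not tested.

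Co-cultured and EM organoids differed both in medium and in the mesenchyme below, so medium and mesenchyme cannot be told apart between them. In co-cultured organoids Ecm1 stood at 796 and 658 TPM, 5.27 times its mean in EM organoids (log2 fold change 2.38, standard error 0.14, limma adjusted p 9.59e-06). Rgs5 stood at 5.06 and 7.73 TPM, a log2 fold change of 1.04 (standard error 0.26, adjusted p 0.0284). These were the 2 members of 10 that were higher, where 5.73% of all genes were. The call of Rgs5 was lost when only the 2 groups were fitted (0.179) and without replicate 1 (0.130) or 2 (0.104) of the EM organoids or replicate 2 of the co-cultured ones (0.173). Reln was at 0.0847 and 0.246 TPM, below 1.49 and 0.963 in EM organoids (log2 fold change -0.93, standard error 0.28, adjusted p 0.0620), which passed with a pseudocount of 0.1 (0.0167), a minimum of 5 (0.0452) and no trend (0.0196). Lrat, Ngfr, Colec11 and Hand2 were under the floor of 3 reads in both organoid groups, and Des was at 0 and 0.813 TPM in the co-cultured organoids. Pdgfra was at 0 and 0.556 TPM there. Of 17 retinoid handling genes Aldh1a3 (3.29), Stra6 (3.02), a receptor that takes up retinol, and Rdh10 (2.80) were among those higher than in EM organoids, and Rbp4 was lower (-3.26).

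The change in culture of SCA1+Msc cells was set against that of ductal cells in a comparison added after seeing the data. It was SCA1+Msc alone over day 0 minus EM organoids over DCs at day 0. The EM organoids grew in expansion medium without mesenchyme below, and the lone SCA1+Msc cells had no organoids above. The cultures differed in medium and in time, so cell type and culture cannot be told apart here. Of the members 3 were above 0 (Rgs5, Cygb and Hand2), where 12.3% of all genes were, and 4 below (Vipr1, Ecm1, Reln and Ngfr), where 14.5% were. Rgs5 fell on both sides with log2 fold changes of -6.19 in the ductal and -2.47 in the mesenchymal cells, a difference of 3.73 (standard error 0.37, limma adjusted p 0.000133). Ecm1 moved in opposite directions, with a difference of -3.39 (standard error 0.19, adjusted p 7.20e-06). Ngfr and Hand2 were under the floor in the ductal groups, so their values rest on the mesenchymal side, and the Ngfr call (-1.11, adjusted p 0.0453) was lost in 10 alternatives, with the replicate block at 0.0513.

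**Figure D4:**
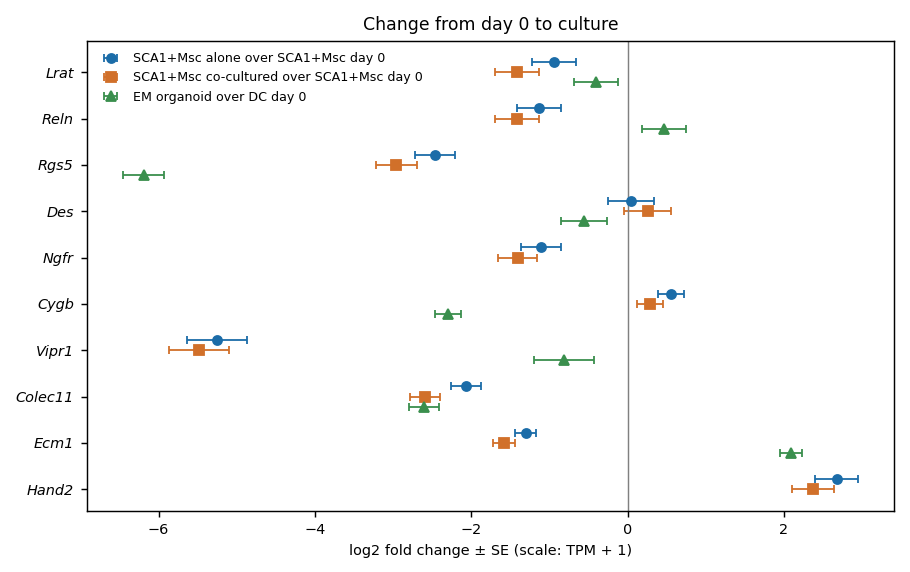
Log2 fold change with SE from day 0 to culture on the scale of log2(TPM + 1), for SCA1+Msc cells alone and co-cultured and for EM organoids. Ecm1 falls by 1.30 and 1.58 in SCA1+Msc cells and rises by 2.09 in EM organoids, Rgs5 falls on both sides, and no point is drawn for Ngfr and Hand2 in organoids, where both groups are under the floor of 3 reads.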

How the data were processed

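Used here were 2 tables of RNA-seq values, with 12 samples in each. According to the methods and labels, single-end Smart-seq2 reads were aligned to GRCm38 with STAR 2.5.0a, filtered on mapping quality with SAMtools and assigned to genes with featureCounts (version 1.6.0 in the submitters' processing notes) and the Ensembl annotation. The transwell table was deposited as RPKM, from which TPM was made by dividing each sample by its sum. The homeostasis table was deposited by the authors as values named TPM, which were tested as such and recomputed with the reuse of totals undone as an alternative, and 4 columns of population means were not used. Dates stand in place of 26 gene symbols among the transwell values, and none of these genes is named.

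Log2(value + 1) was fitted, for genes that reached 1 in 3 samples of the homeostasis or 2 of the transwell table, with limma 3.58.1 in R 4.3.3, using every sample of the table, a mean for each group and a trended eBayes step. A fold change on this scale understates the change of low genes. Tests were two-sided with Benjamini-Hochberg adjustment over all genes tested and a threshold of 0.05, and the script was tested on simulated data. Reads were recovered with exon lengths of GENCODE M21 on GRCm38 (92.8% and 93.0% of low values were whole within 0.02 of a read). Those of Colec11 are approximate, since its exon length differs from the authors'. A floor of 3 reads per library was used, which speaks to counting error only, because PCR copies were not marked by molecular identifiers.

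The members and all lists were chosen with earlier results of these data known. All 10 members were tested in every comparison. Named are, of each list described, the counts, the 2 largest rises and falls and any gene in a count of 5 or fewer, and the 5 genes most like Lrat and Reln with a mean of at least 5. Cyb5r3 in culture was named after its values were seen. A few genes of the lists that this rule would name are not reported here. Same-lettered homeostasis samples come from the same mouse, and their deviations from the group means correlated at 0.00395 to 0.0973 over 18 pairs (median 0.0308). Alternatives were a pseudocount of 0.1, no filter, a minimum of 5, quantile normalization, no trend, a replicate block, only the groups compared, totals undone or RPKM, and each sample left out. Python 3.11.15 with pandas 2.3.3 and matplotlib 3.10.9 was used beside R.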

Additional observations from a re-analysis of the deposited data

Results flagged for a closer look

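For 7 of the 10 markers the change from day 0 to culture differed between SCA1+Msc cells and ductal cells by a test of the difference itself (limma, an interaction added after seeing the data, n = 2 per group). Of the 10, 3 were above 0, where 12.3% of all genes were, and 4 below, where 14.5% were. The cultures compared also differed in medium and in time, so cell type and culture cannot be told apart. Ngfr (-1.11, adjusted p 0.0453) and Hand2 (2.67, adjusted p 0.00103) were under the floor of 3 reads in the ductal groups and are left aside. For the other 5, on the log2(TPM + 1) scale the difference was 3.73 for Rgs5, 2.86 for Cygb, -1.60 for Reln, -3.39 for Ecm1 and -4.44 for Vipr1, with adjusted p values of 0.000133, 4.98e-05, 0.0164, 7.20e-06 and 0.000445. The log2 fold changes in EM organoids and in SCA1+Msc cells alone were -6.19 and -2.47 for Rgs5, -2.30 and 0.56 for Cygb, and 2.09 and -1.30 for Ecm1. Vipr1 and Reln were called on the mesenchymal side only, and their log2 fold changes in EM organoids were -0.81 (adjusted p 0.118) and 0.46 (adjusted p 0.219). The Reln difference was lost with a pseudocount of 0.1 (adjusted p 0.0548) and without replicate 1 of the EM organoids (0.0595) or of the SCA1+Msc cells alone (0.0514). No group was large enough to test whether 1 of its samples lay far from the rest.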

How the results depend on the processing

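Of 130 log2 fold changes (10 members in 13 comparisons) 82 were past the threshold, 67 of them under every alternative run, 15 lost it under at least 1 and 0 turned their direction. The count of members called in PDGFRα+SCA1+ against PDGFRα+SCA1- cells went from 1 to 0 with no filter, quantile normalization, no trend, the mouse as a replicate block and only the groups compared, and to 0 to 2 with a sample left out. In SCA1+Msc cells alone against day 0 it went from 9 to 5 with a pseudocount of 0.1, to 6 with only the groups compared and to 5 to 8 with a sample left out, and in co-cultured against EM organoids from 2 to 1 with only the groups compared, to 3 with a pseudocount of 0.1, a minimum of 5 or no trend, and to 1 to 2 with a sample left out. Among single members the replicate block ended the calls of Rgs5 in PDGFRα+SCA1+ against PDGFRα+SCA1- cells (adjusted p 0.0825), Hand2 in PDGFRα-SCA1+ against PDGFRα+SCA1+ cells (0.0653) and Ngfr in the change in culture (0.0513) and changed no other call. The replicate block in the transwell experiment rests on a shared number alone (deviations correlated at -0.0188 to 0.0295 over 30 pairs). Some values that were not called turned their sign. These were Rgs5 in PDGFRα+SCA1+ cells against DCs (0.0882, quantile normalization), Vipr1 in PDGFRα-SCA1+ cells against DCs (-0.26, pseudocount 0.1), Des in SCA1+Msc cells alone (-0.14, quantile normalization, and -0.0512, RPKM), Cygb in co-cultured against EM organoids (0.0760, quantile normalization), and in the change in culture Lrat (0.88, pseudocount 0.1) and Colec11 (-0.72, RPKM). The last was past the threshold (adjusted p 0.0426), as was Colec11 in the opposite direction with a pseudocount of 0.1 (3.62, 0.000228), and Lrat was at -0.82 with RPKM (0.0451). Lrat and Colec11 were under the floor of 3 reads in both EM organoid libraries, so their log2 values there depend on the pseudocount added. How far this set the signs was not tested. With a sample left out the sign turned for Colec11 (-0.57 to 0.30) in PDGFRα+SCA1+ against PDGFRα+SCA1- cells, Rgs5 (-0.44 to 0.0563) in PDGFRα-SCA1+ against PDGFRα+SCA1+ cells, Ngfr (-0.80 to 0.0944) and Vipr1 (-0.55 to 0.57) in PDGFRα-SCA1+ cells against DCs, Des (-0.14 to 0.22) in SCA1+Msc cells alone, Vipr1 (-0.64 to 0.18) in co-cultured against lone SCA1+Msc cells, and Des (-0.0264 to 0.83) and Cygb (-0.17 to 0.0737) in co-cultured against EM organoids. Depth sets a floor of 3 reads, under which Hand2, Ngfr, Colec11 and Lrat stood in the organoids.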
